A study of Mus musculus with 37 samples.

Results

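The genes described here are 34 mouse genes that act in or beside DNA replication. They were chosen by name from a fixed list of symbols. The list was drawn up with earlier results of these data known. Shares of members called are therefore descriptions beside the shares of all genes tested. All 34 had a row among the 27998 gene rows of the deposited count tables. The question was how their transcripts varied between single cells that differed in the reprogramming factors detected in them. Their levels were followed in cells with and without a transcript of 9 factors (Mef2c, Isl1, Myod1, Mef2a, Smarcd3, Notch1, Tcf3, Hdac1 and Hdac2), and between cells with high and low levels of Cdkn1a, which was delivered in the same pool.

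Single-cell expression was measured by Drop-seq, in which each cell is caught in a droplet with a barcoded bead that captures its polyadenylated RNA. All cells were mouse embryonic fibroblasts of the ICR strain that had been infected with retroviral vectors for a pool of 48 factors and collected 7 days later. The 37 libraries are labelled as technical replicates of 1 biological replicate, so no second biological replicate and no untreated cells are analysed here. P-values therefore measure only the spread between libraries of 1 biological replicate.

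DNA replication starts at origins, where Cdc6 and Cdt1 load the ring of Mcm proteins that unwinds the double helix once Cdc45 and the GINS complex have joined it. Polymerases then copy both strands, held in place by the sliding clamp Pcna, while nucleotide enzymes supply the building blocks and chromatin factors restore histones and DNA methylation behind the fork. In fibroblasts, as in most cells, these genes are transcribed as a cell prepares for and passes through S phase, largely under E2F factors, and they are low in cells that have left the cycle. Cdkn1a encodes p21, an inhibitor of cyclin-dependent kinases and a target gene of p53.

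After removal of repeated barcodes, 8565 cells with 119803382 counts remained, with a median of 8553 counts a cell. The 37 technical replicates held 637680 to 6195462 counts each. Technical replicates 4 and 6 shared 59 barcodes and were counted as 1 library, which gave 36 libraries. Library names in the labels fall into 3 series, JD (15 libraries), PZ47-PZ48 (15) and PZ58 (6). In 10 libraries, 4 of JD and 6 of PZ58, the ribosomal gene Rps27a stood at or above 100 CPM (counts of a gene scaled to a common library total), and in 26 it stood below. The 12 fibroblast markers, collagens among them, summed to between 12241 and 19050 CPM on average in every group of cells compared below, and the lowest of these means was in cells with Myod1. Free RNA in the droplets was not measured, so a detected transcript may in part come from outside the cell, and a delivered transcript cannot be told from an endogenous one.

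Promoter sequences of RefSeq (GRCm38.p6, 250 bases before to 50 after the start site) were found for 29 of the 34 genes; Mcm4, Gins1, Gins2, Rfc2 and Pole are named only. The letters TTTCCCGC or TTTGGCGC, which are core forms of the E2F site, were searched for on both strands. They were present in 11 of the 29 (37.9%) and in 441 of 27025 promoters of all genes (1.63%). The pentamer CCAAT was present in 18 of the 29 (62.1%, against 37.9% of all promoters). The letters TTTGAA or TTCGAA, the core of a cell cycle element found in genes of later phases, were present in 6 of the 29 (20.7%, against 19.4% of all promoters). The windows below belong to some of the genes with a match. These genes are Mcm3, Mcm5 and Mcm6 of the helicase ring, the loader Cdt1, and Pclaf, a small protein that binds Pcna. In the comparisons below Pclaf was called 8 times, Mcm5 5 times, Mcm6 4 times, and Mcm3 and Cdt1 3 times each. Tyms and Uhrf1 (7 each) and Rrm1 and Lig1 (6 each) hold no match and were called more often than all of these but Pclaf. Rrm2, which also holds no match, is set beside the matched windows because it was called with 5 of the factors and not between the Cdkn1a quartiles. It does not stand for the genes without a match. Of these, 11 of 18 were called between those quartiles, against 9 of 11 with a match. Capitals mark the E2F letters on either strand, and each window is written 5′ to 3′ along its gene.
Mcm3, chr1:20820263-20820562, minus strand: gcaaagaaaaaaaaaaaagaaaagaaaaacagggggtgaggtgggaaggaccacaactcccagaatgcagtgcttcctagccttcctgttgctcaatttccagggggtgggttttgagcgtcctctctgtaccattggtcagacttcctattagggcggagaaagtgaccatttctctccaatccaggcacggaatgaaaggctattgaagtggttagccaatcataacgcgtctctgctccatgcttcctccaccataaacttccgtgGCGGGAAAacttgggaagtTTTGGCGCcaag
Mcm5, chr8:75109259-75109558, plus strand: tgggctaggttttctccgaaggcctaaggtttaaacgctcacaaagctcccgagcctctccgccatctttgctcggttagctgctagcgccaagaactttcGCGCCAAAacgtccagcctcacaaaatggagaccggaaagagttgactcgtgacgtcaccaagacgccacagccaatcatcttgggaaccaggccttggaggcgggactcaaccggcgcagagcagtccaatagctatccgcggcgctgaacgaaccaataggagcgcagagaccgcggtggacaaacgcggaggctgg
Mcm6, chr1:128359656-128359955, minus strand: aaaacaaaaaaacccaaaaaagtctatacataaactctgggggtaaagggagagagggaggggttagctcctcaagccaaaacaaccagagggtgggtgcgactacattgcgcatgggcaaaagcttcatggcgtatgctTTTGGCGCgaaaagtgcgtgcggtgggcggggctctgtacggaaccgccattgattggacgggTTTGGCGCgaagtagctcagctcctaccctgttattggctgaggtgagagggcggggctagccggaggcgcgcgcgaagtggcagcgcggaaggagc
Cdt1, chr8:122567765-122568064, plus strand: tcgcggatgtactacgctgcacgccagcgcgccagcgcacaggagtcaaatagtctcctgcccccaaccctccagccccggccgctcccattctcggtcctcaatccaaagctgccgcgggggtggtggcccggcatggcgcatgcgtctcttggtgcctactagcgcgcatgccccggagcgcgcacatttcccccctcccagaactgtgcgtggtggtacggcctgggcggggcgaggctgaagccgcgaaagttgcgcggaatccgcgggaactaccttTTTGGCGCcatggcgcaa
Pclaf, chr9:65890073-65890372, plus strand: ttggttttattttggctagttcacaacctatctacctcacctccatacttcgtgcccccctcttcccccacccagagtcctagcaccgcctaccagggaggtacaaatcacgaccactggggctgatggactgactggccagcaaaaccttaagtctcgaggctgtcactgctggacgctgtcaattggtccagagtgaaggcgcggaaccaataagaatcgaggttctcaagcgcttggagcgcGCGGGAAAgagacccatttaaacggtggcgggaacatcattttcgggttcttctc
Rrm2, chr12:24708004-24708303, plus strand: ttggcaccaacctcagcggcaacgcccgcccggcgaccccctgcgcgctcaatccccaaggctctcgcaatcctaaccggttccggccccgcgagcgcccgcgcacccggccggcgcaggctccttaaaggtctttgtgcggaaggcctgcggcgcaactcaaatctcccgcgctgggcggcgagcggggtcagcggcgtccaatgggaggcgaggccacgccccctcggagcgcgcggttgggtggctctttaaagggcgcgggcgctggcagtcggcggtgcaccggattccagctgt

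Counted from the first base of the match, with the start site at 0, Mcm3 held matches at 19 and 38, Mcm6 at -110 and -47, Mcm5 at -149, Cdt1 at 32 and Pclaf at -5. The other 6 genes with a match were Mcm7 (-165), Gins3 (-41), Cdc6 (-138), Pola1 (-138), Rfc3 (0) and Pold1 (39). A match is a description of the letters, and binding was not measured.

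Summed over all cells of a library, the 34 genes held 1537 ± 274 CPM (SD, n = 36 libraries), from 1154.8 to 2597 CPM with a median of 1450 CPM. The highest value was in technical replicate 26, the library with the fewest counts. The mean was 1516 CPM in JD, 1546 CPM in PZ47-PZ48 and 1569 CPM in PZ58 libraries. Of single genes, Rrm1 and Rrm2, the large and small subunits of ribonucleotide reductase, held 123 ± 18.5 CPM and 113 ± 38.3 CPM, and Pclaf held 115 ± 32.4 CPM. Mcm6 held 62.0 ± 17.7 CPM, Mcm5 28.0 ± 6.03 CPM, and Pole, the catalytic subunit of the leading strand polymerase, 7.95 ± 2.37 CPM (SD, n = 36 for each). Such levels are not corrected for transcript length and do not rank the genes against each other. Pcna held 22.2 ± 7.14 CPM; the GENCODE annotation of GRCm38 names the copies Pcna-ps1 and Pcna-ps2, so its count is uncertain, as is that of Tyms, which has Tyms-ps. The strand of counting is not stated, and exons of 11 members (Mcm7, Gins2, Cdc45, Rfc2, Rfc4, Rfc5, Pole, Tk1, Fen1, Lig1 and Chaf1a) overlap an antisense gene, so their values may hold reads of that gene.

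**Figure D1:**
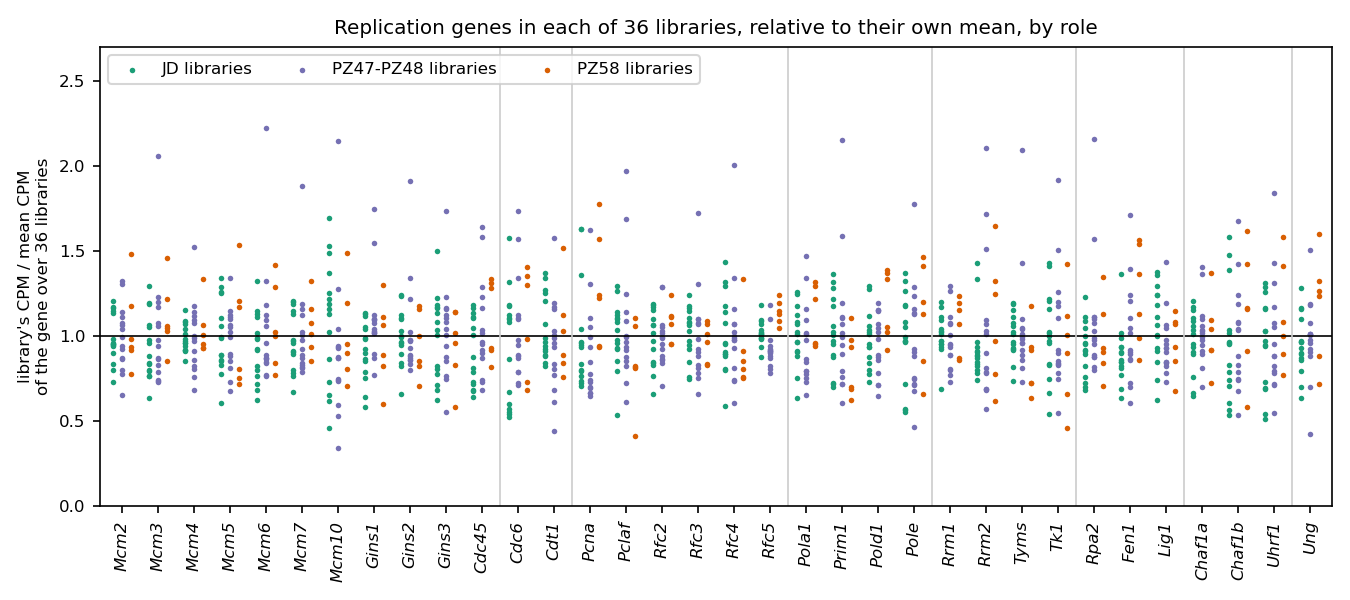
Each point is the level of 1 gene in 1 of 36 libraries, divided by that gene's mean over the libraries (vertical axis, no unit), with genes along the horizontal axis by role and colours for the library series. The series overlap for the genes shown, and Mcm10 ranges from 3.00 to 18.8 CPM around a mean of 8.77 CPM.

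The transcripts were unevenly spread over cells. With every cell thinned to 3000 counts (8179 cells, with 386 shallower cells left out), the median cell held 3 counts of the 34 genes, 1028 cells (12.6%) held none and 1237 cells (15.1%) held 10 or more, up to 36. The tenth of cells with the most such counts held 35.9% of them. Of the 24 genes of G2 and M phase listed beside the members (Mki67, Top2a and Ccnb1 among them), thinned cells with no member count held 1.08 counts on average, cells with 1 to 2 held 1.66, cells with 3 to 5 held 6.72, cells with 6 to 9 held 17.3 and cells with 10 or more held 17.0. From the lowest to the highest quartile of total counts within a library, the summed level of the members averaged 1502, 1500, 1616 and 1514 CPM.

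In the 10 comparisons the smaller group of each library was matched 1 to 1 to cells of the other group with a total within 10%. Cells without a partner were left out, and both sets were summed per library. Of cells with a factor, 2355 of 5612 were used for Mef2a, 2612 of 4510 for Smarcd3 and 2699 of 4023 for Tcf3. For Hdac1 2383 of 4672 and for Hdac2 2087 of 6177 were used. The used cells had fewer counts, with a median total of 6495 for Mef2a and 6076 for Hdac2. Over all cells with these factors it was 11421.5 and 10774. The comparisons share cells, since a cell can hold several factors and the cells without a factor recur from comparison to comparison, so they are not independent of each other. Summed over the 34 genes, cells with Mef2a, Smarcd3, Myod1, Mef2c and Isl1 had lower means than their matched cells, as had cells of the top Cdkn1a quartile, and cells with Tcf3, Hdac2, Notch1 and Hdac1 had higher ones. The log2 ratio of the summed level, as a mean over libraries with its SE, was -0.39 ± 0.084 for Cdkn1a, -0.36 ± 0.15 for Myod1, -0.32 ± 0.072 for Mef2a, -0.32 ± 0.066 for Smarcd3, -0.14 ± 0.086 for Mef2c and -0.11 ± 0.12 for Isl1. It was 0.33 ± 0.053 for Tcf3, 0.32 ± 0.072 for Hdac2, 0.31 ± 0.087 for Notch1 and 0.24 ± 0.058 for Hdac1 (n = 36 libraries, 34 for Myod1). Without technical replicate 26, in which 16 pairs gave a log2 ratio of -2.28 for Mef2c, the Mef2c ratio was -0.08. For Isl1 it was -0.29 without the marker-bearing cells described below and -0.38 without cells with Myod1 or Mef2c counts. No test was run on these sums. In bulk sums of this kind, fewer cells in S phase and less RNA of these genes per cell cannot be told apart.

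**Figure D2:**
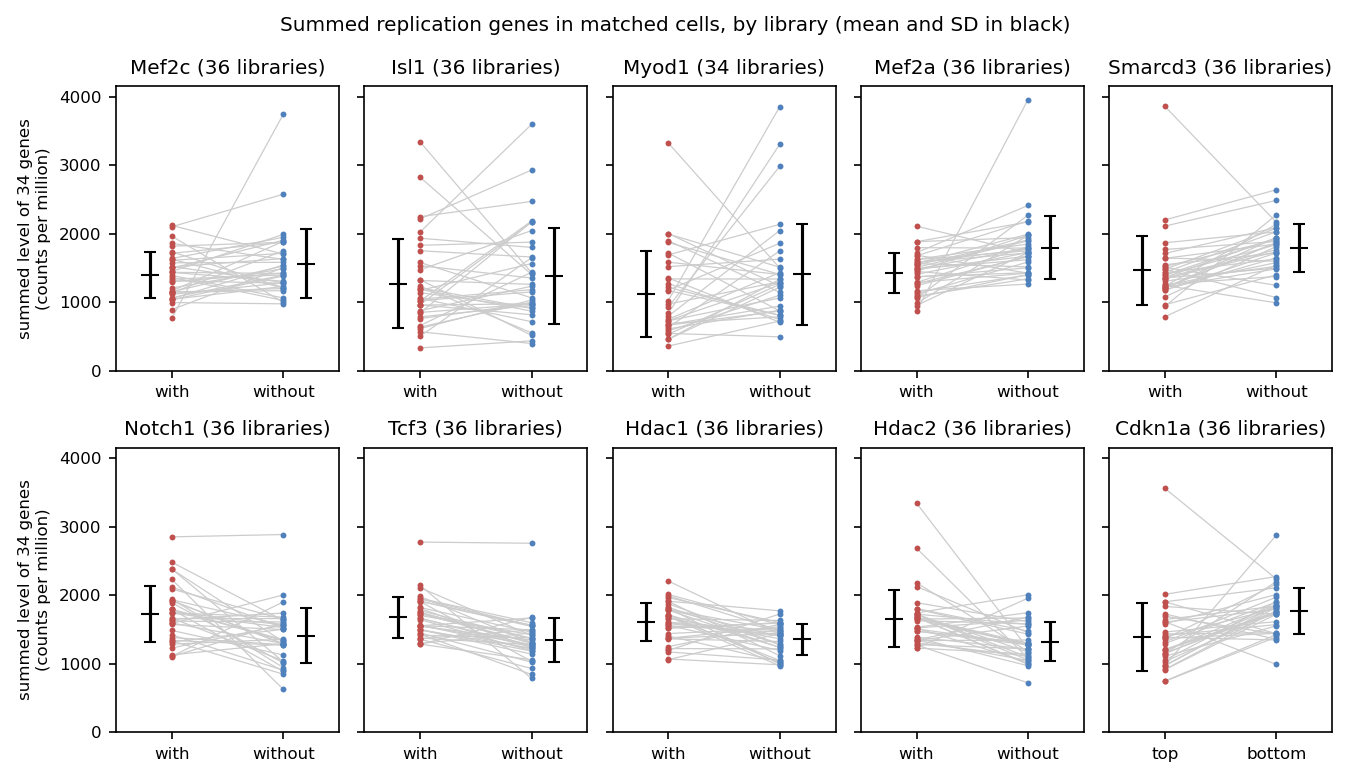
Summed level of the 34 genes (vertical axis, CPM) in each library, for cells with a factor (left, red) and matched cells without it (right, blue), or for the top and the bottom Cdkn1a quartile, with lines joining the pair of a library and the mean and SD in black. Cells with Tcf3 lie above their matched cells in 32 of 36 libraries, and cells with Mef2a or Smarcd3 below theirs in 31 of 36.

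Cells in the top quartile of Cdkn1a had less of most replication genes than cells in the bottom quartile, with Ung, Mcm5 and Uhrf1 at the largest fold changes of the 34. Of the 34 members, 23 fell and none rose (edgeR quasi-likelihood test, Benjamini-Hochberg adjusted p under 0.05 over 14847 genes), where 10.0% of all genes tested fell and 22.2% were called in either direction. Members had a median log2 fold change of -0.43, against 0.03 over all genes tested. Cdkn1a itself averaged 1866 ± 343 CPM in the top and 145 ± 61.3 CPM in the bottom quartile (SD, n = 36 libraries, 1512 matched pairs of cells).

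Mcm5 had 0 CPM in the lowest library, 16.7 CPM in the median and 39.2 CPM in the highest in the top Cdkn1a quartile, and 4.16, 38.4 and 82.0 CPM in the bottom quartile. Its ranges overlap, but it was lower in the top quartile in 32 of 36 libraries, with a log2 fold change of -1.09 ± 0.15 (SE, adjusted p = 3.60e-08). Mcm2 had 4.36, 25.8 and 59.9 CPM in the top quartile, against 19.1, 47.6 and 84.3 CPM in the bottom quartile. It was lower in 34 of 36 libraries (-0.78 ± 0.10, adjusted p = 8.23e-09, the smallest among the members). Mcm4 (-0.67), Mcm6 (-0.67) and Mcm3 (-0.79) also fell, while Mcm7 (-0.20) and Mcm10 (-0.37) did not pass the test. Of the factors that activate the ring, Gins1 (-0.57) and Cdc45 (-0.44) fell, and Gins2 (-0.19) and Gins3 (-0.24) did not pass. The loaders Cdc6 (-0.68) and Cdt1 (-0.81) both fell.

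Uhrf1, which brings the maintenance DNA methyltransferase to newly copied DNA, had 0, 15.4 and 53.2 CPM in the lowest, median and highest library in the top Cdkn1a quartile and 0, 28.6 and 79.6 CPM in the bottom quartile. Its log2 fold change was -0.92 ± 0.14 (adjusted p = 4.74e-07). Ung, the glycosylase that removes uracil from DNA, averaged 5.30 ± 4.18 CPM in the top and 13.2 ± 9.38 CPM in the bottom quartile (SD, n = 36 libraries), a log2 fold change of -1.26 that was past the threshold. Of the polymerases, Pola1 (-0.78) and Pold1 (-0.65) fell, and Prim1 (-0.31) and Pole (-0.39) did not pass. The lagging strand factors Lig1, Fen1 and Rpa2 fell, by 0.65, 0.47 and 0.42 on the log2 scale. Of the nucleotide enzymes, Tyms (-0.36) and Rrm1 (-0.26) fell, while Tk1 (-0.26) and Rrm2 (-0.05) did not pass. Of the clamp group, Pclaf (-0.53), Rfc4 (-0.37), Rfc3 (-0.30) and Rfc2 (-0.24) fell, and Pcna (-0.20) and Rfc5 (-0.10) did not pass. Beside Uhrf1, Chaf1a of the chromatin genes fell (-0.52), and Chaf1b (-0.24) did not pass.

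Set beside the promoter letters above, the 11 genes with an E2F match had a median log2 fold change of -0.67 between the Cdkn1a quartiles, with 9 of them called, and the 18 genes with a promoter but no match had a median of -0.37, with 11 called. In the comparison for Mef2a the order of the medians was the other way, at -0.28 with and -0.34 without a match, and for Tcf3 they were 0.35 and 0.34. These medians are descriptions without a test.

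Across the 4 quartiles of Cdkn1a, taken within blocks of 4 cells of neighbouring depth, the summed level of the replication genes averaged 1632 ± 321, 1569 ± 331, 1510 ± 395 and 1375 ± 490 CPM from low to high Cdkn1a (SD, n = 36 libraries). The G2 and M genes averaged 2500 ± 746, 2347 ± 670, 2205 ± 607 and 1906 ± 645 CPM in the same order. Each mean was lower than the one before it, by less than the SD between libraries, and no test was run on these steps.

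**Figure D3:**
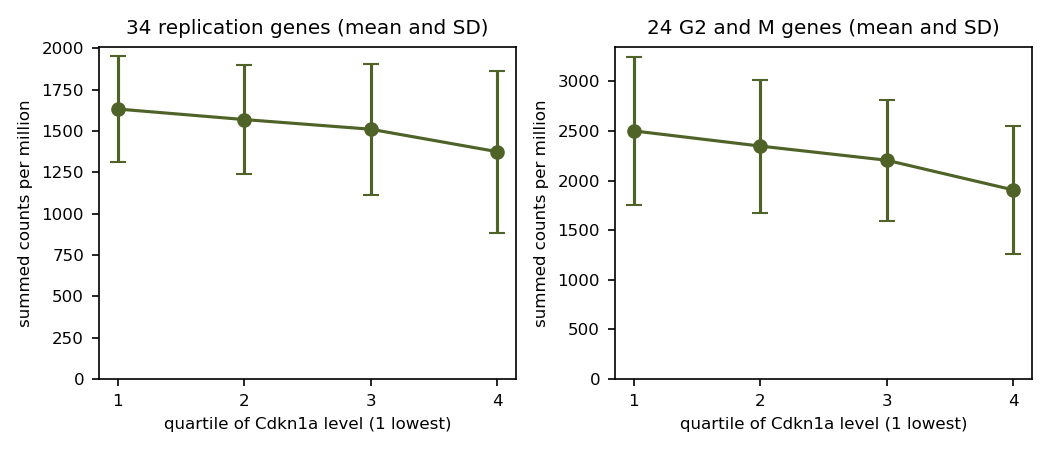
Mean summed level (vertical axis, CPM) of the 34 replication genes on the left and of 24 G2 and M genes on the right, by quartile of Cdkn1a level from low to high (horizontal axis), with the SD over 36 libraries as bars. Both lines decline from the lowest to the highest quartile, and the bars overlap throughout.

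The other genes moved as follows between the Cdkn1a quartiles. Of the 21 genes of the p53 response, 20 rose, led by the cyclin Ccng1 (1.06 ± 0.045), Trp53inp1 (1.97 ± 0.085) and the p53 ligase Mdm2 (1.64 ± 0.071). Of 40 further replication genes, 23 fell and none rose, among them the histone chaperone Nasp (-0.73), Dnmt1 (-0.66) and the helicase Hells (-0.88). Of the 24 G2 and M genes, 21 fell, with Cdc20 at -0.83, Tpx2 at -0.72 and Mki67 at -0.85. Of 16 E2F genes and cyclins 3 rose (Rb1, Ccnd2 and Ccnd3) and 3 fell. Of the 17 skeletal muscle markers 17 rose, their sum ran from 90.1 to 8841 CPM over libraries in the top quartile, against 69 to 3333 CPM in the bottom quartile, and none of them was at 0 in either group. Of the 12 macrophage markers 7 rose, their sum ran from 0 to 1823 CPM over libraries in the top quartile, against 13.9 to 944 CPM in the bottom quartile, and none of them was at 0 in either group. Of the 12 fibroblast markers 7 fell, Col1a1, Col1a2 and Pdgfra among them, with sums of 12674 to 20799 CPM over libraries in the top quartile, against 14234 to 22839 CPM in the bottom quartile. Of the 8 smooth muscle markers 3 fell, with sums of 8653 to 20548 CPM in the top quartile, against 10194 to 26816 CPM in the bottom quartile. None of these markers was at 0 in either group, and their part in the result was not tested. Without the cells that held 3 or more counts of skeletal muscle, macrophage, mesothelial or glial markers, 25 members fell.

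Cells in which Mef2a was detected had less of all nucleotide and chromatin genes on the list. Mef2a encodes a MADS-box factor of muscle and heart. Of the 34 members 19 fell and none rose in 2355 matched pairs (edgeR, adjusted p under 0.05), where 2.64% of all 15034 genes tested fell, 2.73% rose and 5.37% were called in either direction. The median log2 fold change of the members was -0.30, against 0.01 over all genes tested.

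Pclaf had 48.1 CPM in the lowest library, 102 CPM in the median and 182 CPM in the highest in cells with Mef2a, and 62.8, 138 and 302 CPM in cells without. Cells with Mef2a were lower in 30 of 36 libraries, and the log2 fold change was -0.48 ± 0.071 (adjusted p = 6.31e-06). Fen1, the nuclease that trims the flaps of the lagging strand, had 6.01, 29.4 and 56.0 CPM in cells with Mef2a, against 14.9, 39.7 and 98.6 CPM in cells without. It was lower in 28 of 36 libraries (-0.55 ± 0.090, adjusted p = 3.32e-05). All 4 nucleotide enzymes fell, Tyms (-0.34), Rrm2 (-0.36), Rrm1 (-0.28) and Tk1 (-0.34), as did the 3 chromatin genes Chaf1a (-0.32), Chaf1b (-0.46) and Uhrf1 (-0.37). Lig1, the ligase that joins the lagging strand fragments, fell by 0.37. Of the helicase group 6 of 11 fell, namely Mcm4, Mcm5, Mcm7, Gins1, Gins2 and Cdc45, and neither loader passed. Prim1 and Pole fell among the polymerases, and Pclaf and Rfc5 in the clamp group. Ung (-0.27) did not pass.

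Of the 40 further replication genes 14 fell with Mef2a, led by Gmnn, the inhibitor of Cdt1 (-0.50), Topbp1 (-0.37) and Dut (-0.31). Of the 24 G2 and M genes 21 fell, among them Cenpe (-0.41), Mki67 (-0.41) and Top2a (-0.42). Of the cyclin and E2F genes Ccnd3 rose (0.17) and Ccne1 fell (-0.28). Cdkn1a averaged 836 ± 205 CPM in cells with and 707 ± 154 CPM in cells without Mef2a. Among the 17 skeletal muscle markers 17 rose, their sum ran from 92.8 to 4536 CPM over libraries in cells with Mef2a, against 62.3 to 2635 CPM in cells without, and none of them was at 0 in either group. Of the 12 macrophage markers 11 rose, their sum ran from 13.2 to 866 CPM over libraries in cells with Mef2a, against 0 to 688 CPM in cells without, and none of them was at 0 in either group. With the marker-bearing cells of the 4 types left out, 6 members fell, and without cells with Myod1 or Mef2c counts 10 fell, while the summed log2 ratio was -0.23 and -0.32 in these settings, against -0.32 with all cells. With DESeq2 10 fell.

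Cells in which Smarcd3 was detected also had less of most replication genes. Smarcd3 encodes a subunit of the SWI/SNF remodelling complex known from heart and muscle. Among the 34 members 24 fell and none rose in 2612 matched pairs (edgeR, adjusted p under 0.05), where 5.68% of all 15607 genes tested fell, 4.48% rose and 10.2% were called in either direction. The median log2 fold change was -0.33, against 0.01 over all genes.

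Rrm1 had 74.3 CPM in the lowest, 110 CPM in the median and 209.6 CPM in the highest library in cells with Smarcd3, and 69.5, 148 and 209 CPM in cells without. The extremes were thus alike, but it was lower in 31 of 36 libraries (-0.35 ± 0.053, adjusted p = 3.16e-06). Pclaf had 29.3, 104 and 310 CPM in cells with Smarcd3, against 48.0, 144 and 261 CPM in cells without, with a log2 fold change of -0.56 ± 0.085 (adjusted p = 3.77e-06). Rrm2 (-0.50 ± 0.085), Prim1, the subunit that lays down primers (-0.53 ± 0.091), Gins2 (-0.38 ± 0.066) and the clamp loader Rfc4 (-0.47 ± 0.085) followed, with adjusted p of 2.66e-05, 3.60e-05, 4.44e-05 and 6.91e-05 in this order. All nucleotide, lagging strand and chromatin genes fell, with Chaf1b at -0.62. Of the clamp group 3 of 6 fell and of the polymerases 3 of 4. In the helicase group 7 of 11 fell, among them Mcm3 (-0.28), Mcm4 (-0.28) and Gins1 (-0.53). Cdc6 fell (-0.54) and Cdt1 did not pass (-0.26). Ung (0.05) and Rfc5 (-0.04) did not pass.

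Of the 40 further replication genes 18 fell with Smarcd3, led by Dut (-0.40), Hells (-0.42) and the origin subunit Orc6 (-0.32). Of the 24 G2 and M genes 23 fell, with Bub1 at -0.68, Hmmr at -0.57 and Birc5 at -0.59. Ccne2 (-0.43) and Rbl1 (-0.56) fell and Ccnd3 rose (0.16). Of the 17 skeletal muscle markers 16 rose, their sum ran from 83.8 to 4306 CPM over libraries in cells with Smarcd3, against 76.9 to 1709 CPM in cells without, and none of them was at 0 in either group. Of the 12 macrophage markers 11 fell, their sum ran from 0 to 319.9 CPM over libraries in cells with Smarcd3, against 8.69 to 1530.1 CPM in cells without, and none of them was at 0 in either group. Leaving out the marker-bearing cells of the 4 types, 16 members fell, and without cells with Myod1 or Mef2c counts 11 fell, while the summed log2 ratio was -0.34 and -0.27 in these settings, against -0.32 with all cells.

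Cells in which Notch1 was detected had more Tyms, Rfc2 and Prim1, and more of the G2 and M genes. Notch1 encodes a receptor of signals between neighbouring cells. In all, 10 of the 34 members rose and none fell in 1664 matched pairs (edgeR, adjusted p under 0.05), where 1.53% of all 15862 genes tested rose, 1.30% fell and 2.83% were called in either direction. Members had a median log2 fold change of 0.28, against -0.00199 over all genes.

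Tyms, which makes thymidylate, had 60.6 CPM in the lowest, 119.99 CPM in the median and 279 CPM in the highest library in cells with Notch1, and 40.6, 91.0 and 246 CPM in cells without. It was higher in 28 of 36 libraries (0.37 ± 0.067, adjusted p = 6.12e-04). Rfc2 had 29.4, 68.2 and 115 CPM in cells with Notch1, against 29.8, 49.9 and 85.2 CPM in cells without, and was higher in 30 of 36 (0.31 ± 0.061, adjusted p = 1.28e-03). Prim1 (0.44), Cdt1 (0.40), Pclaf (0.43) and Rfc4 (0.36) also rose, as did Gins2 (0.27), Tk1 (0.40), Lig1 (0.29) and Uhrf1 (0.41). No Mcm gene passed the test; their values ran between 0.09 for Mcm6 and 0.57 for Mcm10. All 24 G2 and M genes rose, with Kif23 at 0.60, Ccnb2 at 0.61 and Cenpe at 0.62. Of the 40 further replication genes 4 rose, Dnmt1 (0.39), Dbf4 (0.34) and Nasp (0.24) among them. The skeletal muscle markers averaged 710 ± 912 CPM in cells with and 878 ± 1207 CPM in cells without Notch1, and none of the 17 was called. Of the 8 glial markers 4 rose, their sum ran from 5.51 to 537 CPM over libraries in cells with Notch1, against 0 to 96.3 CPM in cells without, and none of them was at 0 in either group. Smooth muscle markers were lower with Notch1: 6 of 8 fell, with sums of 8998 to 19220.0 CPM over libraries in cells with Notch1, against 9057 to 21047 CPM in cells without, none was at 0 in either group, and their part in the result was not tested. Without the marker-bearing cells of the 4 types 1 member rose, and with a call at 2 or more counts of Notch1 1 member rose, while the summed log2 ratio was 0.28 and 0.42 in these settings, against 0.31 with all cells.

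Cells in which Tcf3 was detected had more of nearly every group of replication genes. Tcf3 encodes the E proteins that pair with tissue-specific basic helix-loop-helix factors such as Myod1. The test called 25 of the 34 members, all of which rose, in 2699 matched pairs (edgeR, adjusted p under 0.05), where 1.89% of all 15918 genes tested rose, 3.20% fell and 5.09% were called in either direction. The median log2 fold change was 0.33, against 0.000199 over all genes.

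Mcm7 had 35.8 CPM in the lowest, 55.5 CPM in the median and 95.3 CPM in the highest library in cells with Tcf3, and 0, 41.6 and 95.6 CPM in cells without. It was higher in 31 of 36 libraries (0.42 ± 0.066, adjusted p = 3.22e-05). Chaf1a, the large subunit of the chromatin assembly factor, had 21.9, 41.6 and 71.5 CPM in cells with Tcf3, against 10.0, 30.6 and 48.7 CPM in cells without, and was higher in 31 of 36 (0.40 ± 0.065, adjusted p = 3.42e-05). Tyms (0.33), Prim1 (0.47), Lig1 (0.40) and Pola1, the catalytic subunit of polymerase alpha (0.46), came next. In the helicase group 8 of 11 rose: all of Mcm2 to Mcm7, Gins2 and Cdc45, the last at 0.52. All 4 nucleotide enzymes and all 3 chromatin genes rose, and Pcna rose in this comparison (0.33). Mcm10, Gins1, Gins3, Cdc6, Rfc3, Rfc5, Pole, Rpa2 and Ung did not pass.

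Of the 40 further replication genes 13 rose with Tcf3, led by Topbp1 (0.29), Dut (0.32) and the nuclease Dna2 (0.82). Of the 24 G2 and M genes 13 rose, among them Top2a (0.38), Mki67 (0.33) and Cenpe (0.33). The cyclins Ccne1 (0.30) and Ccne2 (0.36) rose and Cdk6 fell (-0.23). Among the 17 skeletal muscle markers 3 fell, their sum ran from 65.7 to 2802 CPM over libraries in cells with Tcf3, against 85.3 to 3814 CPM in cells without, and none of them was at 0 in either group. Of the 10 mesothelial markers 5 fell, their sum ran from 5.49 to 305 CPM over libraries in cells with Tcf3, against 31.7 to 652 CPM in cells without, and none of them was at 0 in either group. All 8 smooth muscle markers fell, with sums of 10197 to 17614 CPM over libraries in cells with Tcf3, against 11805 to 20132 CPM in cells without, and the sum was higher with Tcf3 in 0 of 36 libraries. Of the 10 cardiomyocyte markers 7 fell, with sums of 147 to 1966 CPM in cells with Tcf3, against 193 to 3320.2 CPM in cells without. None of these markers was at 0 in either group, and the part of smooth muscle and cardiomyocyte markers in the result was not tested. With the marker-bearing cells of the 4 types left out, 20 members rose.

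Cells in which Hdac1 was detected had more Mcm2 and more of the nucleotide genes. Hdac1 and Hdac2 encode related histone deacetylases. With Hdac1 11 of the 34 members rose and none fell in 2383 matched pairs (edgeR, adjusted p under 0.05), where 0.991% of all 15440 genes tested rose, 1.31% fell and 2.30% were called in either direction. The median log2 fold change was 0.24, against -0.00628 over all genes. Mcm2 had 20.6 CPM in the lowest, 39.2 CPM in the median and 91.6 CPM in the highest library in cells with Hdac1, and 14.4, 30.3 and 45.7 CPM in cells without, and was higher in 28 of 36 (0.50 ± 0.077, adjusted p = 3.98e-05). Rrm2 had 40.5, 104 and 160 CPM in cells with Hdac1, against 32.8, 79.7 and 150.02 CPM in cells without (0.50 ± 0.084, adjusted p = 1.41e-04). Tyms (0.28), Tk1 (0.45), Pclaf (0.39) and Rpa2 (0.30) rose, as did Mcm5 (0.34), Mcm6 (0.29), Cdc6 (0.53), Rfc2 (0.25) and Uhrf1 (0.42). No polymerase gene passed. Of the 40 further replication genes 11 rose, and of the 24 G2 and M genes 12 rose, with Ccnb2 at 0.46. Of the 17 skeletal muscle markers 14 fell, their sum ran from 94.8 to 2873 CPM over libraries in cells with Hdac1, against 115 to 5700.3 CPM in cells without, and none of them was at 0 in either group. Leaving out the marker-bearing cells of the 4 types, 2 members rose, and without cells with Myod1 or Mef2c counts 4 rose, while the summed log2 ratio was 0.22 and 0.27 in these settings, against 0.24 with all cells. With DESeq2 7 rose.

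Cells in which Hdac2 was detected had more Pclaf, Uhrf1 and Lig1 and more of 3 nucleotide enzymes. Here 6 of the 34 members rose and none fell in 2087 matched pairs (edgeR, adjusted p under 0.05), where 0.776% of all 14694 genes tested rose and 1.00% were called in either direction. Members had a median log2 fold change of 0.26, against -0.0057 over all genes. Pclaf had 60.1 CPM in the lowest, 116 CPM in the median and 269 CPM in the highest library in cells with Hdac2, and 29.9, 83.9 and 206 CPM in cells without, and was higher in 27 of 36 (0.46 ± 0.10, adjusted p = 7.13e-03). Uhrf1 had 8.01, 25.9 and 58.7 CPM in cells with Hdac2, against 1.36, 15.6 and 43.9 CPM in cells without (0.54 ± 0.13, adjusted p = 0.0172). Rrm1 (0.30), Lig1 (0.36), Rrm2 (0.41) and Tyms (0.31) were the others called. Of the 24 G2 and M genes 19 rose, Tpx2 (0.50), Mki67 (0.61) and Ube2c (0.71) among them, and of the 40 further replication genes 4 rose. Among the 17 skeletal muscle markers 4 rose, their sum ran from 95.1 to 4255 CPM over libraries in cells with Hdac2, against 118 to 3817 CPM in cells without, and none of them was at 0 in either group. Without the marker-bearing cells of the 4 types 12 members rose. Without technical replicates 4 and 6, 2 members rose, Pclaf and Uhrf1.

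Cells in which Mef2c was detected had less Mcm4, Rrm1 and Chaf1a. Mef2c encodes another MADS-box factor of heart and skeletal muscle. Of the 34 members 3 fell and none rose in 2031 matched pairs (edgeR, adjusted p under 0.05), a share of 8.82%, where 3.08% of all 16146 genes tested fell and 8.17% were called in either direction. All 34 fitted values were below 0, with a median of -0.17 against 0.00215 over all genes. Mcm4 had 11.7 CPM in the lowest, 47.4 CPM in the median and 66.7 CPM in the highest library in cells with Mef2c, and 40.8, 59.9 and 138 CPM in cells without. It was lower in 30 of 36 libraries (-0.38 ± 0.062, adjusted p = 1.37e-05). Rrm1 (-0.23 ± 0.063, adjusted p = 0.0135) and Chaf1a (-0.31 ± 0.087, adjusted p = 0.0173) were the others. Of the 24 G2 and M genes Ube2c rose (0.67) and none fell, and of the 40 further replication genes 4 fell, Dut (-0.27), Orc1 (-0.51) and Orc6 (-0.19) among them. Of the 17 skeletal muscle markers 17 rose, their sum ran from 119 to 9985 CPM over libraries in cells with Mef2c, against 62.2 to 418 CPM in cells without, and none of them was at 0 in either group. Of the 12 macrophage markers 11 rose, their sum ran from 12.2 to 1138 CPM over libraries in cells with Mef2c, against 12 to 272 CPM in cells without, and none of them was at 0 in either group. Of the 8 glial markers 5 rose, their sum ran from 7.92 to 154 CPM over libraries in cells with Mef2c, against 3.91 to 89.8 CPM in cells without, and none of them was at 0 in either group. With the marker-bearing cells of the 4 types left out, no member was called by edgeR, 0 of the 34 had an unadjusted p under 0.05, and the summed log2 ratio was -0.03; DESeq2 was not run there. The cells with 2 or more Mef2c counts stood further from their matched cells, with 10 members lower and a summed log2 ratio of -0.31.

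Myod1 and Isl1 were detected in fewer cells, and their comparisons rest on 340 and 390 matched pairs. Of the 34 members 1 fell with Myod1, Pclaf, a share of 2.94%, below the background: 6.14% of all 13640 genes tested fell and 16.1% were called in either direction (edgeR, adjusted p under 0.05). Pclaf had 0 CPM in the lowest, 42.2 CPM in the median and 302 CPM in the highest library in cells with Myod1, the master regulator of skeletal muscle, and 0, 89.9 and 306 CPM in cells without. It was lower in 23 of 34 libraries (-0.70 ± 0.23, adjusted p = 0.0241), and without technical replicates 4 and 6 no member was called by edgeR, with 4 at an unadjusted p under 0.05; DESeq2 was not run there. Mcm3 averaged 24.9 ± 22.1 CPM in cells with and 39.2 ± 23.7 CPM in cells without Myod1 (-0.52 ± 0.19, adjusted p = 0.0565). Of all 34 members 6 had an unadjusted p under 0.05 in this comparison, a smaller share than the 27.0% of all genes tested. DESeq2 called 1 member. Among the 17 skeletal muscle markers 17 rose, their sum ran from 249 to 29762 CPM over libraries in cells with Myod1, against 26.2 to 986 CPM in cells without, and none of them was at 0 in either group. Of the 12 fibroblast markers 11 fell, their sum ran from 5011 to 22026 CPM over libraries in cells with Myod1, against 13160.0 to 26560.0 CPM in cells without, and none of them was at 0 in either group. Cdkn1a averaged 1454 ± 624 CPM in cells with and 885 ± 259 CPM in cells without Myod1, and 6 of the 21 p53 response genes fell, Bax (-0.27), Mdm2 (-0.38) and Tnfrsf10b (-0.60) among them. Among the 24 G2 and M genes Ube2c rose (2.18), Cdc20 (-0.81) and Cenpe (-0.69) fell, 23 had fitted values below 0 and the median was -0.48. Their summed log2 ratio had the opposite sign, at 0.09 ± 0.31 (SE, n = 34 libraries). Of the 16 E2F genes and cyclins 4 rose, Rb1 (1.36), Ccnd3 (1.12) and E2f2 among them, and 2 fell. Of 6 further inhibitors of cyclin-dependent kinases Cdkn1c (1.58) rose, and Cdkn2a (-0.98) and Cdkn2b (-0.70) fell. Leaving out the marker-bearing cells of the 4 types, 16 libraries remained, the summed log2 ratio was 0.09 and no member was called by edgeR, with 1 at an unadjusted p under 0.05.

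With Isl1, a LIM homeodomain factor of heart progenitors, no member was called by edgeR or by DESeq2, where 0.887% of all 13644 genes were called in either direction by edgeR. Of the 34 members 3 had an unadjusted p under 0.05, where 10.5% of all genes tested did. Mcm2 had 0 CPM in the lowest, 28.1 CPM in the median and 73.5 CPM in the highest library in cells with Isl1, and 0, 33.6 and 94.1 CPM in cells without (-0.43 ± 0.16, adjusted p = 0.235). Cdt1 averaged 13.8 ± 12.3 CPM in cells with and 20.3 ± 17.1 CPM in cells without Isl1 (-0.56 ± 0.25, adjusted p = 0.377). The median log2 fold change of the members was -0.20, against 0.00751 over all genes, with a median SE of 0.20 per gene. Of the 34 fitted values 31 were below 0. Without cells with Myod1 or Mef2c counts, 18 members had an unadjusted p under 0.05 and edgeR called 1. The share of all genes in that setting is not given here. On simulated counts for this comparison the same test found 42 of 50 genes changed by 2-fold and 24 of 50 given the middle change. It found 7 of 100 given the smallest change simulated, so changes near that size were mostly not detectable at this depth. Only genes with 100 or more counts were changed in the simulation, so members with fewer counts were not covered.

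**Figure D4:**
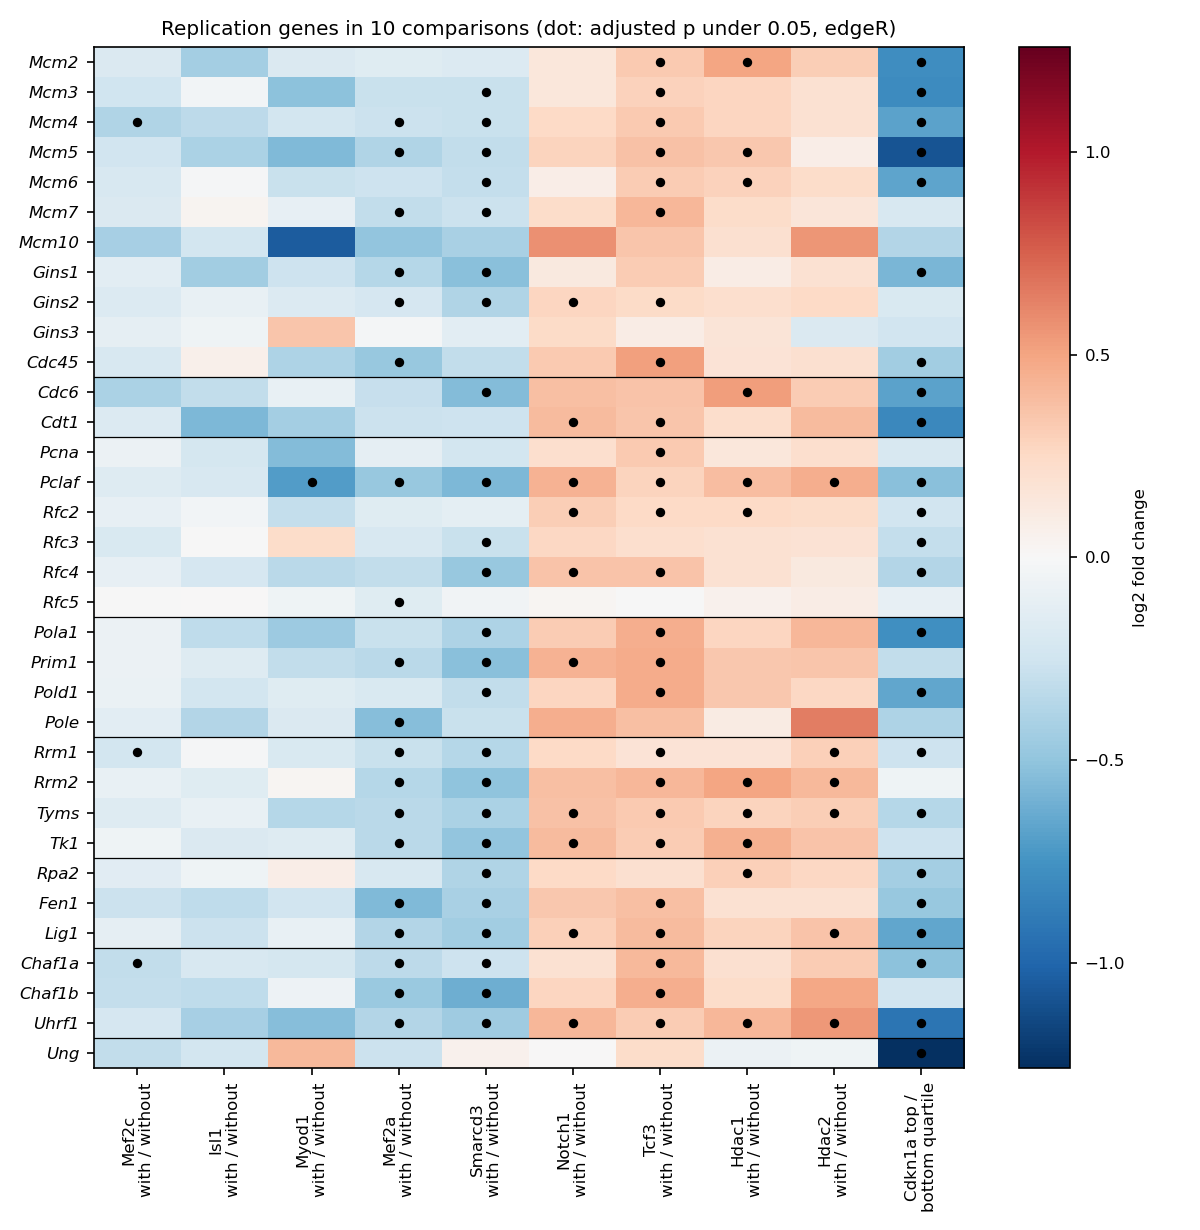
Log2 fold change (colour, blue lower and red higher in the group named first) of each of the 34 genes (rows, by role) in the 10 comparisons (columns), with a dot where the adjusted p of edgeR was under 0.05. The columns of Mef2a, Smarcd3 and Cdkn1a are mostly blue with 19, 24 and 23 dots, and the columns of Notch1, Tcf3, Hdac1 and Hdac2 mostly red with 10, 25, 11 and 6.

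Seen gene by gene, the comparisons for Smarcd3, Tcf3 and Cdkn1a differed in which members stood out; they share cells, and these differences were not tested. Rrm2 had a log2 fold change of -0.50 with Smarcd3, 0.42 with Tcf3 and -0.05 between the Cdkn1a quartiles. Ung had 0.05 with Smarcd3, 0.23 with Tcf3 and -1.26 between the Cdkn1a quartiles. Mcm5 had -0.31, 0.37 and -1.09 in the same order, and Pclaf had -0.56, 0.28 and -0.53. Rfc5, whose exons overlap Wsb2, stayed between -0.15 (Mef2a, called) and 0.09 (Hdac2) in all 10 comparisons. Mcm10 and Gins3 were called in none of the 10; both are counted at low levels, 8.77 ± 3.27 CPM and 11.7 ± 2.91 CPM (SD, n = 36 libraries).

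The effects were also compared between the JD and the PZ47-PZ48 libraries. No member was called for a difference between these series in any of the 10 comparisons (edgeR interaction term, adjusted p under 0.05). Over all genes tested this term also called few, at most 11 of 15156 (0.073%), for Hdac1. The absence of called members therefore does not show that the series agree. Between 0 and 7 of the 34 members had an unadjusted p under 0.05, with 7 for Hdac1 and 6 for Mef2a. DESeq2 was not run on this term. Summed log2 ratios within JD, PZ47-PZ48 and PZ58 were -0.17, -0.51 and -0.25 for Mef2a, -0.34, -0.34 and -0.20 for Smarcd3, and 0.27, 0.42 and 0.27 for Tcf3. They were 0.30, 0.39 and 0.17 for Notch1, 0.32, 0.14 and 0.29 for Hdac1, and 0.33, 0.24 and 0.50 for Hdac2. For the Cdkn1a quartiles they were -0.41, -0.33 and -0.53, and for Myod1 -0.37, -0.30 and -0.48. Those for Mef2c were 0.003, -0.32 (with technical replicate 26, at -2.28, among these libraries) and -0.07, and those for Isl1 -0.09, -0.33 and 0.36, so Mef2c and Isl1 did not keep their sign in every series. By Rps27a class, the sign of Isl1 also differed, at 0.22 in the 10 high and -0.24 in the 26 low libraries.

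Placed among the 39 factors of the pool with enough cells, 7 of the 9 lay towards the ends, and Mef2c and Isl1 lay in the middle of the order. The lowest summed log2 ratios were those of Gata4 (-0.38 ± 0.21, SE over 29 libraries), Myod1, Mef2a, Smarcd3 and Mesp1 (-0.30 ± 0.12), and the highest those of Tcf3, Hdac2, Notch1, Nr2f2 (0.26 ± 0.061) and Hdac1. Neighbours in this order lie within their errors of each other. Mef2c stood at -0.14 and Isl1 at -0.11, beside Hand2 (-0.14 ± 0.15), Nkx2-5 (-0.13 ± 0.15) and Gata6 (-0.11 ± 0.11).

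**Figure D5:**
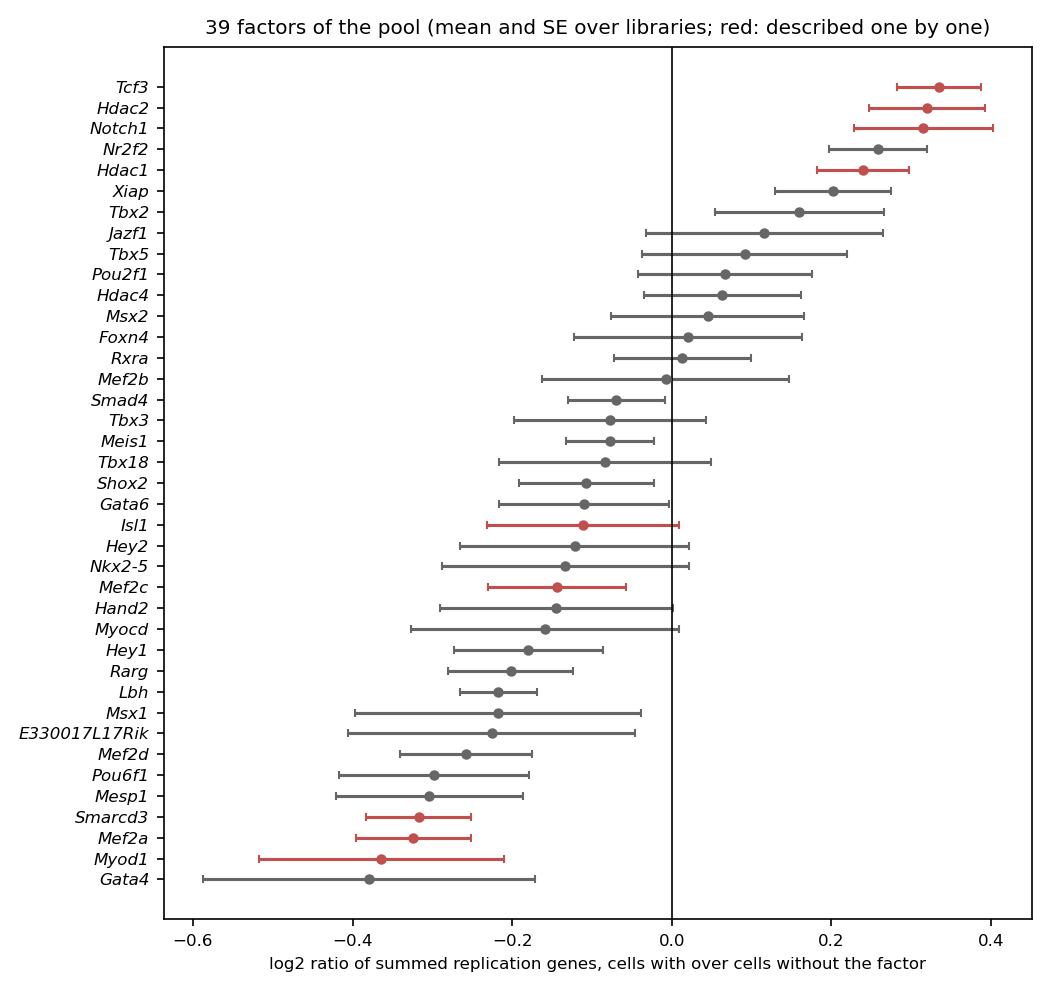
Log2 ratio of the summed level of the 34 genes, cells with over cells without a factor (horizontal axis), for 39 factors of the pool (rows), with the mean and SE over libraries and the 9 factors described above in red. Tcf3 is the highest at 0.33 and Gata4 the lowest at -0.38.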

How the data were processed

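Tools named in the submitters' processing notes are STAR 2.5.3a, featureCounts 1.5.3, bcl2fastq 2.17.1.14 and UMI-tools, with mm10 as the build; the annotation release, strand setting, cell filter and handling of multimapping reads are not given in the sources used here. The tables were deposited as whole-number counts for each gene and barcode, not normalized. Barcodes shared between libraries, or 1 base apart within one, were reduced to the copy with the most counts, which removed 89 and 76 of 8730 barcodes. No doublet caller was run; an alternative left out each library's deepest 5% of cells.

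Detection of a factor meant 1 or more counts of its gene. Within a library the smaller group was matched 1 to 1 to cells of the other group with a total within 10%. Cells without a partner were dropped, libraries needed at least 3 pairs, and matched cells were summed per library. Genes with 20 or more counts were tested with edgeR 4.0.16 (R 4.3.3; quasi-likelihood, TMM scaling, library as a block), with Benjamini-Hochberg adjustment over all genes and a threshold of 0.05; the gene that defined the groups was left out. Matched sums of a library share its technical replicate number and were paired through this block. The replication genes, marker lists and pathway lists were chosen with earlier results of these data known. In each comparison the members named with full values are up to 6 that passed, taken by adjusted p, or the 2 with the smallest p where fewer than 2 passed; of each pathway list up to 3 were named. The test was tried on simulated counts with 1 common dispersion, in which only genes with 100 or more counts were changed. It found 39 to 66 of 100 genes changed by 1.25-fold, except 7 for Isl1 and 9 for Myod1, with 2 to 11 false calls. Alternatives were DESeq2 1.42.0, no block, no filter, no matching, no 10% limit, 2 or more counts for a call, and sets of cells or libraries left out.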

Additional observations from a re-analysis of the deposited data

Results flagged for a closer look

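Of 11 groups of libraries small enough for a check of single values, 1 held a library far from the others. In the Tcf3 comparison the 6 PZ58 libraries had a mean summed log2 ratio of 0.27, and the lowest of them stood at -0.38, cells with Tcf3 over cells without. Chance marks about 1 in 20 such groups.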

How the results depend on the processing

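Of the counts of called members and summed ratios under all alternatives, 245 were alike, 24 weaker, 12 stronger and 1 reversed. Alike meant a count within a fixed fold of the main count, or a summed ratio that moved by less than the SD between libraries. All those labelled weaker or stronger were counts of called members. The SD rule for summed ratios is wide, so alike ratios say little about stability. For Isl1 the ratio moved from -0.11 to -0.52 without matching and still counted as alike. A summed ratio less than 2 SE from 0 could change sign and still count as alike, as for Isl1 and Mef2c within single series. Of single members, 520 kept their direction and side of the threshold, 68 were weaker, 5 stronger and 1 reversed. Without the replicate block 1 member was called for Mef2c, 6 for Mef2a, 4 for Notch1, 14 for Tcf3, 2 for Hdac1 and 1 for Hdac2. Without the marker-bearing cells, edgeR called 0 for Mef2c and 0 for Myod1 (0 and 1 at an unadjusted p under 0.05), 6 for Mef2a, 1 for Notch1, 2 for Hdac1 and 12 for Hdac2. In that setting the summed log2 ratio was -0.231 for Mef2a (-0.324 with all cells), 0.279 for Notch1 (0.315), 0.224 for Hdac1 (0.239) and 0.447 for Hdac2 (0.320); that of Myod1 reversed to 0.091, and Mcm3 in that comparison to 0.265. Without cells holding counts of Myod1 or Mef2c (other than the factor compared), 1 was called for Mef2c, 1 for Isl1, 0 for Myod1, 10 for Mef2a, 11 for Smarcd3, 16 for Tcf3, 4 for Hdac1 and 2 for Hdac2. Without matching, 11 were called for Mef2c, 22 for Isl1, 13 for Myod1, 20 for Hdac1 and 18 for Hdac2; without the 10% limit, 0 for Myod1 and 19 for Hdac1. At 2 or more counts for a call, 10 were called for Mef2c, 9 for Myod1 and 1 for Notch1. With DESeq2 10 were called for Mef2a and 7 for Hdac1. With no filter on low counts 2 were called for Myod1, and without the deepest 5% of cells 3. Without technical replicates 4 and 6, 0 were called for Myod1 and 2 for Hdac2. The causes were not tested. With 340 and 390 pairs, Myod1 and Isl1 had a median SE of 0.23 and 0.20 per member. A difference as large as the median of the members with Tcf3 (0.33) was less than 2 SE there.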
